A study of Mus musculus with 73 samples.

Results

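Met and 8 genes beside it on mouse chromosome 6 (Tes, Cav2, Cav1, Capza2, St7, Cftr, Cttnbp2 and Lsm8) were followed through 73 mammary tumours. These are 9 of the 39438 gene symbols in the deposited count table, and all 9 passed the filter on low counts. They were chosen by earlier values of the same libraries, the level of each gene in single tumours over its median, which had shown Met and several neighbours far above their usual level and Cav1 apart from the rest. The heights in those tumours are therefore given as a description, with no test.

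The 73 libraries, 1 per tumour, fall into 8 groups. Tumours with the Brca1 variant p.L1363P carry the genotype label KB1(L1363P)P and comprise 9 sarcomatoid tumours (labelled 0% epithelial), 9 carcinosarcomas (2 to 98%) and 3 adenocarcinomas (100%). KP tumours comprise 3 carcinosarcomas (80 to 90% epithelial) and 5 adenocarcinomas (100%). The other adenocarcinomas, all labelled 100% epithelial, are 11 titled KB1P, 10 titled KB1PM, whose genotype label is also KB1P, and 23 titled KB2P. In the established models of these names a basal keratin promoter drives Cre, which deletes Trp53 in epithelium, alone in KP and together with Brca1 in KB1P or Brca2 in KB2P. All groups thus share the loss of p53 as far as their names go. The labels give no ages, and whether each tumour is from its own animal is not stated, so the p-values rest on the spread among these libraries alone. L1363P carcinosarcomas 54.1 and 54.2 share a number.

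Met encodes the receptor tyrosine kinase for hepatocyte growth factor (HGF), a ligand that stromal cells secrete in an inactive form and that proteases on the cell surface activate. The receptor signals through docking and adaptor proteins to the MAP kinase and PI3 kinase pathways and drives motility, growth and branching of epithelium, the mammary gland included. In human cancers it is known both for gene amplification and for raised expression, and in mice the Met locus has been found amplified in mammary tumours that lack p53. Caveolins 1 and 2, encoded by the pair of genes next to Met, form caveolae, small pits of the plasma membrane that are abundant in endothelial cells, fibroblasts and adipocytes.

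In the mouse genome build GRCm38 (mm10) the 9 genes span 1790.6 kb. Tes, which encodes the focal adhesion protein testin, lies first, at chr6:17065149-17105828. Cav2 (chr6:17281185-17289115) and Cav1 (chr6:17306335-17341452) follow, then Met at chr6:17463800-17573980. Capza2, the α2 subunit of the capping protein of actin filaments, lies at chr6:17636234-17666972, and St7, a gene first described as a candidate tumour suppressor in human cells, at chr6:17692933-17943025. Cftr, the chloride channel gene mutated in cystic fibrosis, occupies chr6:18170687-18322768. Cttnbp2, which encodes a cortactin-binding protein of neurons, is the only member on the minus strand (chr6:18366478-18514843). Lsm8, a subunit of the Lsm ring that binds U6 small nuclear RNA, closes the row at chr6:18848579-18855751. Antisense or other genes on the opposite strand overlap Tes, Cav1, Cav2, St7, Cftr and Cttnbp2, and without the authors' strand setting their reads cannot be told apart from those of the member.

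Promoter sequences are shown for Met and the 2 caveolin genes, because the caveolin genes are neighbours that part company in the results below. They run from 250 bases before to 50 bases after the transcription start in RefSeq (GRCm38.p6, plus strand), which listed 12 such promoters for the 9 members. Capitals mark every match, on either strand, to the AP-1 site TGACTCA or the GC box GGGCGG, and overlapping matches run together. The Cav2 promoter is chr6:17280935-17281234, the first Cav1 promoter chr6:17306085-17306384 and the Met promoter chr6:17463707-17464006.

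Cav2: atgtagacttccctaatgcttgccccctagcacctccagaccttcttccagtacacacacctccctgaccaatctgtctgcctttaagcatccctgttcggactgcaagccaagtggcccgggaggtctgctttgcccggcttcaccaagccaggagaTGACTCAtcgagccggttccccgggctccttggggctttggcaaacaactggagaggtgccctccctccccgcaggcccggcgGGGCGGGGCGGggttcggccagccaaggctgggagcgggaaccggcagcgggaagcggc
Cav1: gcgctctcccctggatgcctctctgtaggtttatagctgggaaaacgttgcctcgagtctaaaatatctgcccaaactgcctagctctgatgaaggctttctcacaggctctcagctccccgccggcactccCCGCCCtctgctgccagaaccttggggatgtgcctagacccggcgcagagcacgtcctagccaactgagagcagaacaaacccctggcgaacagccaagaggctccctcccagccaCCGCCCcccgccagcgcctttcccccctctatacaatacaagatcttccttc
Met: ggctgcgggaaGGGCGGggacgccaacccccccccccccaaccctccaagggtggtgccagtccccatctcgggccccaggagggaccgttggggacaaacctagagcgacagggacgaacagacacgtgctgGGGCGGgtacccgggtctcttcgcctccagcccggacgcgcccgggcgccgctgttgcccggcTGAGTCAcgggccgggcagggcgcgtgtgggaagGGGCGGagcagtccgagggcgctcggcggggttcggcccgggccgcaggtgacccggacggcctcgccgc

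The first base of the AP-1 letters lay at position -92 from the start of Cav2 and at -54 from that of Met, and the letters were found in none of the other 10 promoters, the pair of Cav1 included. Among 32544 mouse promoters of the same length 5.19% hold this site. The GC box occurred 2 times in Cav2, 2 times in the first Cav1 promoter and 3 times in Met, and 35.9% of all promoters hold it. The TATA letters TATAAA, present in 13.6% of all promoters, appear on one strand of the first Cav1 promoter and in neither Cav2 nor Met. These matches describe letters in these windows, and no binding was measured.

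Libraries of the L1363P and KP tumours, all of sequencing run 5625, held 13103749 to 17550129 counts, and the 44 KB1P, KB1PM and KB2P libraries, of other runs, held 7325180 to 31615237. Run and genotype can therefore not be told apart between these sets. Levels below are CPM, counts relative to library size scaled by trimmed means of M values, and a fold is a tumour's CPM over the median of the 73 tumours. Of 61 tumours labelled 75% epithelial or more, 4 summed over the epithelial marker genes to no more than the highest sarcomatoid tumour (511 CPM), against their label: L1363P carcinosarcoma 6 (labelled 95%, 333 CPM), KP adenocarcinoma 90.01A (100%, 250 CPM), KB1PM tumour 8 (100%, 159 CPM) and KB2P tumour 30 (100%, 12.3 CPM). The 3 L1363P adenocarcinomas had 2059 to 8052 CPM. L1363P carcinosarcomas 17 (5% epithelial) and 4 (2%) stood low too, at 139 and 321 CPM, as their labels have it. Gene counts do not read the L1363P substitution and check no genotype.

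Usual levels differed among the 9 genes. Per kilobase of exon, median levels over the 73 tumours were highest for Cav1 (46.4 CPM per kb), Capza2 (37.2) and Cav2 (30.5), then Tes (19.8), Lsm8 (13.1) and Met (10.2). Cttnbp2 (4.03), St7 (2.24) and Cftr (0.414) lay lowest. Cftr rested on a median of 42 counts, so its folds carry the widest counting error, whereas Met had a median of 1223 counts and a range of 27 to 236472.

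Met exceeded 10 times its median in 9 of 73 tumours: 5 of 9 L1363P carcinosarcomas, all 3 KP carcinosarcomas and 1 of 5 KP adenocarcinomas. L1363P carcinosarcoma 53 was highest, at 16350 CPM, with 236472 reads on the 1 gene. KP adenocarcinoma 39 followed at 14956 CPM, and KP carcinosarcomas 130.10A and 26.02A at 13007 and 12845 CPM. L1363P carcinosarcomas 54.2, 21.1 and 54.1 had 12208, 11824 and 10032 CPM, KP carcinosarcoma 5 had 5056 CPM and L1363P carcinosarcoma 45 had 1297 CPM. These are 209, 191, 166, 164, 156, 151, 128, 64.6 and 16.6 times the median of 78.3 CPM. That median comes largely from the 44 KB1P, KB1PM and KB2P libraries of other runs. Over the median of the 29 tumours of run 5625 alone, the first 8 stood in the same order, at 45.6 times in carcinosarcoma 53, 41.7 in KP adenocarcinoma 39 and down to 14.1 in KP carcinosarcoma 5, and carcinosarcoma 45 stood under 4 times. A gap separated them from the other 64 tumours, whose highest Met count was 6336 reads. Just inside the threshold of 10 stood carcinosarcoma 45, at 16.6 times the median, and just outside it L1363P carcinosarcoma 17, at 6.01 times. The labels give the 9 tumours as 75 to 100% epithelial.

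The 9 genes together took 0.682 to 4.22% of all counts in these 9 tumours (median 2.47%), against 0.0257 to 0.204% in the other 64. The highest share was that of L1363P carcinosarcoma 54.2, and the lowest that of carcinosarcoma 45. Whether more RNA per cell or more cells with that RNA lay behind any such level cannot be told apart in bulk tumour tissue.

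**Figure D1:**
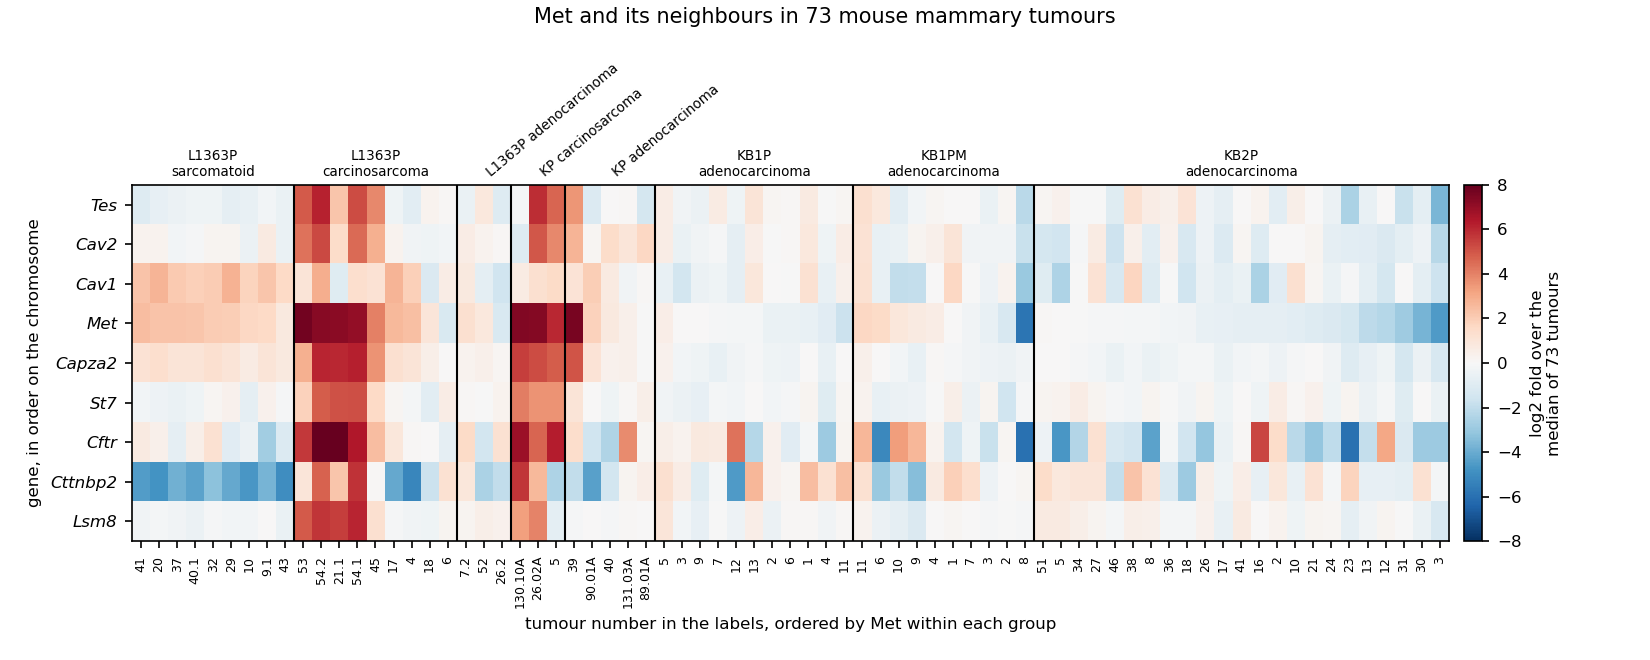
Log2 fold over the median of 73 tumours (colour) for the 9 genes in chromosome order (rows) and every tumour (columns, by group). Colours end at 8, folds further than 6 below the median are drawn at 6 below, and the 9 tumours with Met at 10 or more times its median form columns in which most rows are raised.

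Neighbours stood high in the same tumours. With elevation of a neighbour set at 2 or more times its own median, each of the 9 tumours had 5 to 8 of 8 neighbours elevated, while 48 of the other 64 had 1 or none and 1 had 5. Among 13562 genes with enough reads, the share at 2 or more times the median was 8.66% in L1363P carcinosarcoma 53, 11.4% in KP adenocarcinoma 39, 9.28% in KP carcinosarcoma 130.10A, 9.62% in KP carcinosarcoma 26.02A, 10.4% in L1363P carcinosarcoma 54.2, 9.42% in 21.1, 8.47% in 54.1, 9.43% in KP carcinosarcoma 5 and 10.4% in L1363P carcinosarcoma 45. Since the rule chose the genes on this pattern, nothing is read from the difference.

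On the far side of Met, Capza2 was elevated in all 9 tumours. Its levels were 1568 CPM in L1363P carcinosarcoma 53, 7029 in KP adenocarcinoma 39, 10006 in KP carcinosarcoma 130.10A, 8031 in KP carcinosarcoma 26.02A, 14761 in L1363P carcinosarcoma 54.2, 14451 in 21.1, 16472 in 54.1, 6390 in KP carcinosarcoma 5 and 2641 in L1363P carcinosarcoma 45. These correspond to 7.15 to 75.1 times the median of 219 CPM. The order of tumours by Met was not their order by Capza2: carcinosarcoma 53, first by Met, was last by Capza2.

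St7, the next gene, was also elevated in all 9, at 2.03 (KP adenocarcinoma 39) to 36.4 times its median (L1363P carcinosarcoma 54.1). Among the other 64 tumours St7 never reached 2 times its median, the highest level being 30.4 CPM. Cftr was elevated in all 9 as well. Its levels were 160 CPM in L1363P carcinosarcoma 53, 8.43 in KP adenocarcinoma 39, 369 in KP carcinosarcoma 130.10A, 82.3 in KP carcinosarcoma 26.02A, 827 in L1363P carcinosarcoma 54.2, 1037 in 21.1, 269 in 54.1, 254 in KP carcinosarcoma 5 and 17.4 in L1363P carcinosarcoma 45, where the median of all tumours was 3.21. High Cftr was not particular to these tumours, since KB2P tumour 16 had 129 CPM (1470 counts) with Met at 0.610 times its median, and KB1P tumour 12 had 65.8 CPM (1081 counts) with Met at 0.912 times.

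The 2 genes at the far end followed Met in fewer tumours. Cttnbp2 was elevated in 5 of 9. It reached 52.7 times its median in KP carcinosarcoma 130.10A, 6.07 in KP carcinosarcoma 26.02A, and 26.2, 4.63 and 55.4 in L1363P carcinosarcomas 54.2, 21.1 and 54.1. It stood at 1.97 and 1.06 times in L1363P carcinosarcomas 53 and 45, and at 0.253 and 0.178 times in KP adenocarcinoma 39 and KP carcinosarcoma 5. Lsm8, beyond it, was elevated in 7 of 9, the same 5 tumours with 9.89 to 68.8 times its median, plus L1363P carcinosarcoma 53 (30.6 times) and 45 (2.45 times). In KP adenocarcinoma 39 and KP carcinosarcoma 5 it was at 0.957 and 0.584 times. By these medians the row was interrupted in carcinosarcoma 53, with Cftr at 49.9, Lsm8 at 30.6 and Cttnbp2 between them at 1.97 times. Cttnbp2 had 70.1 CPM there and 37.9 CPM in carcinosarcoma 45. Its median of 35.6 CPM comes largely from the other runs, with group medians of 54.4 (KB1P), 37.9 (KB1PM) and 48.9 CPM (KB2P). In run 5625 group medians were 1.82 CPM in sarcomatoid tumours and 9.08 and 12.8 CPM in L1363P and KP adenocarcinomas. They were 70.1 and 216 CPM in L1363P and KP carcinosarcomas. The interruption and the count of 5 thus depend on the median used.

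On the near side of Met, Tes and Cav2 were elevated in the same 8 tumours. Tes, the farther of the pair, had 4077 CPM in L1363P carcinosarcoma 53, 1571 in KP adenocarcinoma 39, 8183 in KP carcinosarcoma 26.02A, 9456 in L1363P carcinosarcoma 54.2, 629 in 21.1, 4967 in 54.1, 3410 in KP carcinosarcoma 5 and 1963 in L1363P carcinosarcoma 45, which is 4.65 to 69.8 times the median of 135 CPM. Cav2 stood at 2.79 to 38.3 times its median of 102 CPM in these 8. The exception was KP carcinosarcoma 130.10A, where Tes was at 0.941 and Cav2 at 0.485 times the median while Met and every member after it stood at 9.89 or more times.

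**Figure D2:**
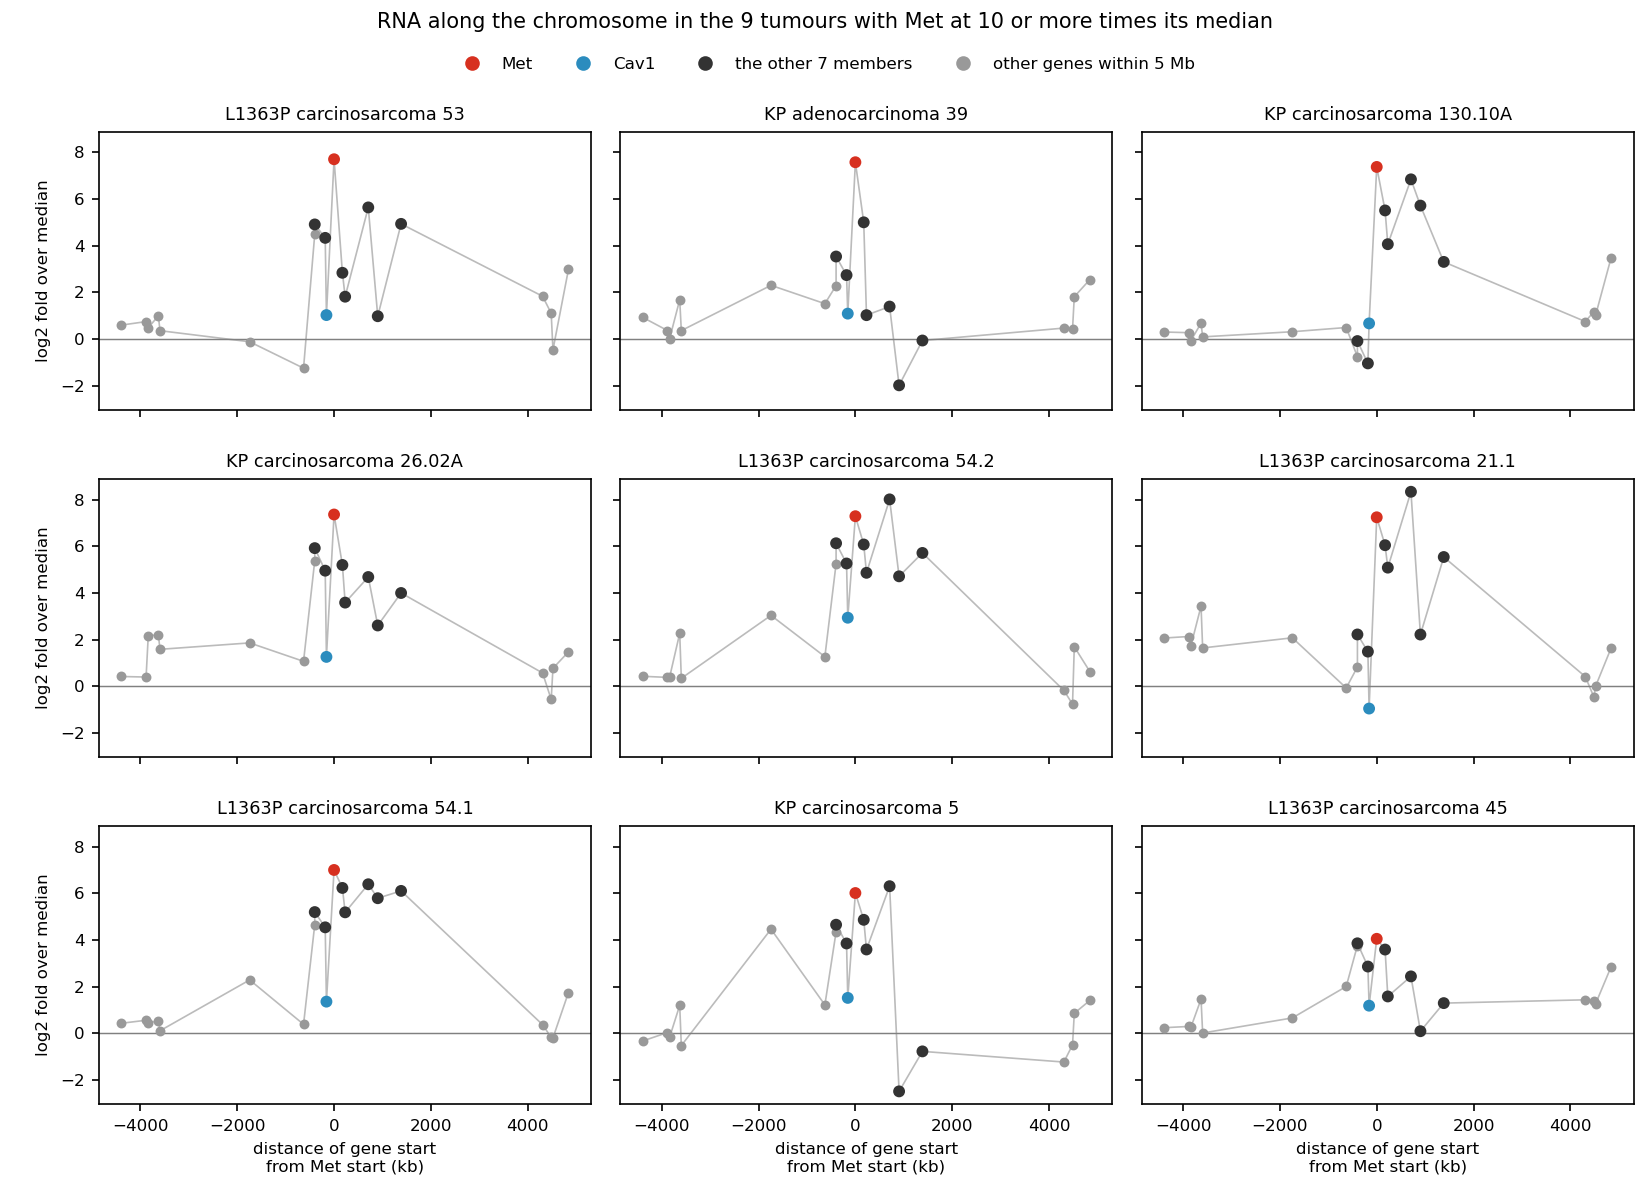
Log2 fold over the median of 73 tumours for genes with a median of at least 1 CPM, by distance of the gene start from the start of Met in kb, 1 panel for each of the 9 tumours with Met at 10 or more times its median (Met red, Cav1 blue, the other members black, other genes within 5 Mb grey). High values form blocks with different ends, and Cav1 dips between Cav2 and Met in 8 panels, all but that of KP carcinosarcoma 130.10A.

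The blocks ended at different genes. With genes of a median of at least 1 CPM and Cav1 passed over, the unbroken row at 2 or more times the median around Met ran from Met itself to Lsm8 in KP carcinosarcoma 130.10A (1392.0 kb). It ran from Tes to Lsm8 in L1363P carcinosarcoma 21.1 (1790.6 kb) and, with the antisense gene Gm4876 at its head, in 54.1 (1790.7 kb). In L1363P carcinosarcomas 53 and 45 it ended at Cftr, having begun at Gm4876 (1257.8 kb) and at Tfec, a transcription factor gene (1489.4 kb). The end at Cftr in carcinosarcomas 53 and 45 depends on the median used for Cttnbp2, as given above. The row reached back to Mdfic, which encodes a protein with a MyoD family inhibitor domain, in KP adenocarcinoma 39 and KP carcinosarcoma 5 (2602.1 kb each, ending at Cftr) and in L1363P carcinosarcoma 54.2 (3135.1 kb, ending at Lsm8). The longest row, from Bmt2 to Lsm8, was that of KP carcinosarcoma 26.02A (5230.1 kb). Rows that reached Tfec or went past it rested there on few reads. Tfec was at 2.09 times its median in 26.02A (56 counts), 2.32 in KP carcinosarcoma 5 (59) and 2.40 in 54.2 (63). It was at 2.86 times in KP adenocarcinoma 39 (73 counts) and 4.02 in carcinosarcoma 45 (108). In 54.1 it was at 1.31 times (31 counts), which ended the row there, although Mdfic beyond it stood at 4.88 times. Starts and lengths of the rows are limited accordingly. A row of RNA levels gives only the genes that were expressed, so its ends are bounds between genes and not positions.

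Beyond the 9 genes, Mdfic was elevated in 6 of 9 tumours, most in KP carcinosarcoma 5 (22.1 times its median), L1363P carcinosarcoma 54.2 (8.19 times) and KP adenocarcinoma 39 (4.93 times). Fam3c, a secreted factor gene on the far side, was at 1.55 to 11.2 times its median and elevated in 8 of 9. It lay beyond the ends of all 9 rows. L1363P carcinosarcoma 21.1 had a separate high stretch before the span, with Tmem106b at 4.18, Tmem168 at 4.37, Bmt2 at 3.33 and Gpr85 at 10.8 times their medians. Within 5 Mb of Met, 11 genes outside the span from Tes to Lsm8 had a median of at least 1 CPM, and 4 of them were elevated in 5 or more of the 9 tumours. Inside the span some genes had few reads throughout: Wnt2, a Wnt ligand gene, had 8 to 98 counts in the 9 tumours and at most 47 in the other 64, and Asz1, a germ cell gene, had 0 to 111 counts against at most 481.

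Cav1, which lies between Cav2 and Met, departed from both. Its levels were 325 CPM in L1363P carcinosarcoma 53, 340 in KP adenocarcinoma 39, 254 in KP carcinosarcoma 130.10A, 381 in KP carcinosarcoma 26.02A, 1220 in L1363P carcinosarcoma 54.2, 82.1 in 21.1, 409 in 54.1, 457 in KP carcinosarcoma 5 and 363 in L1363P carcinosarcoma 45. Over the median of 160 CPM these are 2.04, 2.13, 1.59, 2.39, 7.64, 0.514, 2.56, 2.86 and 2.27 times. Cav1 was the lowest of the 9 genes by fold in KP carcinosarcoma 26.02A and in L1363P carcinosarcomas 54.2, 21.1 and 54.1. At 2 times, the threshold used for every neighbour, Cav1 was elevated in 7 of 9, as was Lsm8. Cttnbp2 was elevated in 5 and Cav2 in 8. By the median of all tumours Cav1 was thus set apart by the height of its folds and not by their number. That median comes largely from the KB1P, KB1PM and KB2P libraries of other runs. Their group medians of Cav1 were 126, 138 and 93.6 CPM. Group medians in run 5625 were 92.0 to 692 CPM, so the count of 7 depends on the median used. Of the 9 tumours only 54.2 (1220 CPM) lay above the lowest sarcomatoid tumour of that run (475 CPM).

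The fold of Cav2 was 9.92 times that of Cav1 in L1363P carcinosarcoma 53, 3.14 times in KP adenocarcinoma 39, 13.0 times in KP carcinosarcoma 26.02A, 5.01, 5.43, 9.10 and 3.20 times in L1363P carcinosarcomas 54.2, 21.1, 54.1 and 45, and 5.04 times in KP carcinosarcoma 5. In KP carcinosarcoma 130.10A, where Cav2 was low, it was 0.305 times. As a log2 ratio of CPM, Cav2 over Cav1 ran from -2.36 to 3.05 (median 1.68) in the 9 tumours and from -3.21 to 1.47 (median -0.70) in the other 64. The ranges overlapped, and the 9 sarcomatoid tumours, from -3.21 to -2.15, formed the low end.

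**Figure D3:**
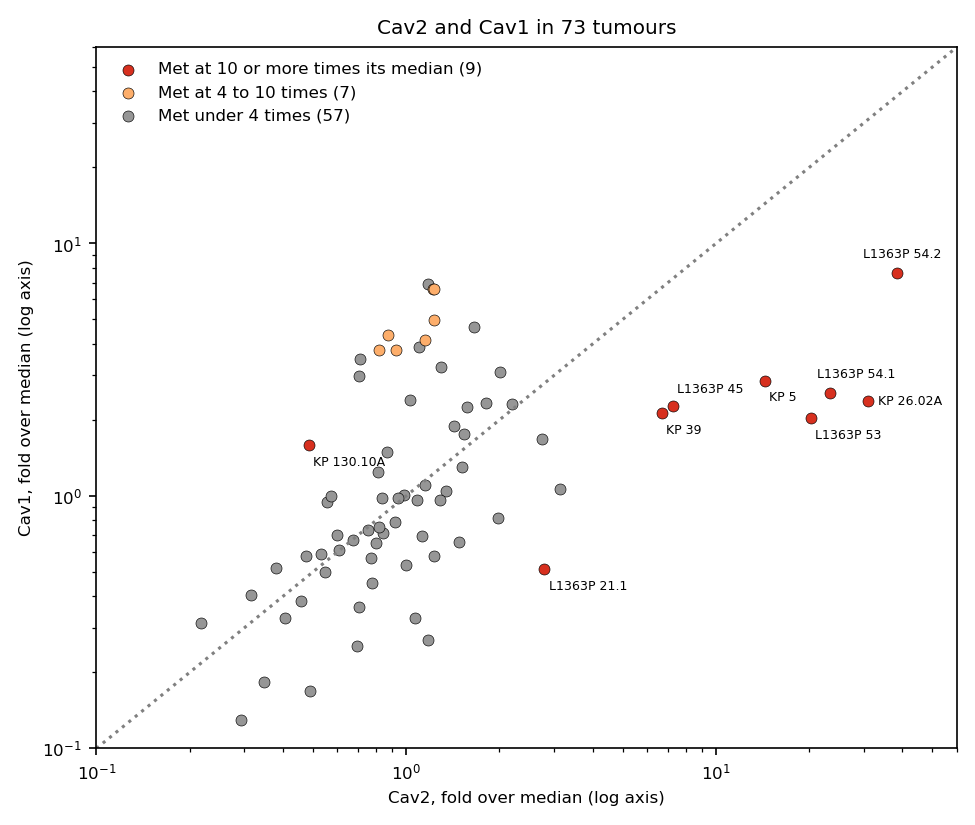
Fold of Cav1 over its median against that of Cav2 (both log axes), 1 point per tumour, coloured by band of Met, with equal folds on the dotted line. Of the 9 red points, 8 lie below the line, at 2.79 to 38.3 times the median of Cav2, and the 7 orange points lie above it, at 3.77 to 6.60 times the median of Cav1.

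A second, lower band of tumours had Met at 4 to under 10 times its median, with neighbours on both sides of their medians. It held L1363P carcinosarcomas 17 (6.01 times) and 4 (5.23) and sarcomatoid tumours 41 (5.55), 20 (4.88), 37 (4.83), 40.1 (4.58) and 32 (4.17), with sarcomatoid tumour 29 just outside at 3.85. In these 7 tumours Tes stood at 0.484 to 0.801, St7 at 0.686 to 1.10 and Lsm8 at 0.720 to 0.951 times the median. Cav2 stood at 0.819 to 1.23 times, Capza2 at 2.00 to 2.51 and Cttnbp2 at 0.0270 to 0.105. Group medians of Capza2 were 180 to 184 CPM in KB1P, KB1PM and KB2P tumours. In run 5625 they were 269 and 285 CPM in L1363P and KP adenocarcinomas, 451 in sarcomatoid tumours and higher in both carcinosarcoma groups. The folds of Capza2 and Cttnbp2 in this band thus depend on the median used. Cftr stood at 0.619 to 2.30 times (median 1.40), on few reads. Cav1 was the highest of the neighbours by fold here, at 3.77 to 6.60 times, and at 3.80 to 6.60 times in the 5 sarcomatoid tumours alone. This band depends on the median used: against the median of their own set (the 29 tumours of run 5625, or the 44 of the other runs) 9 tumours reached 4 times, namely 8 of the 9 above and KB1PM tumour 11 (4.20 times), and neither carcinosarcoma 45 nor any tumour of the lower band did. In the band of 9 tumours, by contrast, median folds were 25.2 for Tes, 14.4 for Cav2, 2.27 for Cav1, 36.6 for Capza2, 12.1 for St7, 79.2 for Cftr, 4.63 for Cttnbp2 and 15.9 for Lsm8.

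Epithelial and macrophage marker sums did not overlap between the top and middle bands, those of the other cell types did, and the 57 tumours below 4 overlapped both bands throughout. Summed endothelial markers were 218 to 634 CPM in the 9 tumours, 317 to 563 in the 7 and 82.0 to 949 in the 57. Summed adipocyte markers were 16.4 to 134 CPM in the 9, 25.1 to 87.6 in the 7 and 3.56 to 3933 in the 57. Summed epithelial markers were 2650 to 4924 CPM in the 9 tumours with Met at 10 or more times its median, 139 to 511 in the 7 tumours of the band from 4 to 10 and 12.3 to 8052 in the 57 below 4. Summed fibroblast markers were 1737 to 17590 CPM in the 9 tumours, 12319 to 31682 in the 7 and 397 to 31190 in the 57. Summed macrophage markers were 732 to 1788 CPM in the 9, 3770 to 5846 in the 7 and 135 to 7143 in the 57. Summed basal markers were 23.3 to 301 CPM (median 177) in the 9, 5.33 to 52.2 (median 35.5) in the 7 and 0.861 to 5759 (median 1108) in the 57. The keratin gene Krt5 was at 0.00533 to 0.106 times its median in the 9 and 0.00312 to 0.0681 times in the 7, and Trp63, which encodes the basal cell factor p63, at 0.0680 to 0.433 times in the 9 and 0.0261 to 0.127 times in the 7, so that these genes were low in both bands. In the 9 the luminal keratin gene Krt8 was at 1.99 to 5.25 times its median. Yap1, which encodes a Hippo pathway coactivator and lies on another chromosome, was at 32.5 to 53.4 times its median in all 7 tumours of the middle band and above 2 times in 1 of the 9 tumours of the top band, KP carcinosarcoma 5 (17.3 times). High Yap1 was not limited to the middle band: 6 of the 57 tumours with Met under 4 times had it above 2 times, namely KP adenocarcinoma 90.01A (33.0 times), sarcomatoid tumours 9.1, 29 and 43 (28.6, 25.3 and 22.7 times), KB1PM tumour 1 (7.06 times) and KB2P tumour 2 (2.05 times). The part of these cell types and of Yap1 in the levels of Met and Cav1 was not tested.

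By group, Met in sarcomatoid tumours ran from 132 to 435 CPM with a median of 327. L1363P carcinosarcomas ran from 33.1 to 16350 CPM (median 1297), the widest range of any group, since carcinosarcomas 18 (150 CPM, 40% epithelial) and 6 (33.1 CPM, 95% epithelial) stood at 1.92 and 0.422 times the median of all tumours. The epithelial markers of carcinosarcoma 6 summed to 333 CPM, against its label, and their part in its Met level was not tested. The 3 L1363P adenocarcinomas had 33.6, 142 and 190 CPM. KP carcinosarcomas had 5056, 12845 and 13007 CPM. KP adenocarcinomas ran from 75.8 to 14956 CPM (median 132), and without tumour 39 the highest was 284 CPM.

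Cav1 was ordered differently. Sarcomatoid tumours ran from 475 to 1101 CPM (median 692), L1363P carcinosarcomas from 71.9 to 1220 (median 363), and the 3 L1363P adenocarcinomas had 52.5, 92.0 and 280 CPM. KP carcinosarcomas had 254, 381 and 457 CPM, and KP adenocarcinomas ran from 130 to 621 CPM (median 267). Sarcomatoid tumours thus had the highest median of Cav1 and not of Met.

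**Figure D4:**
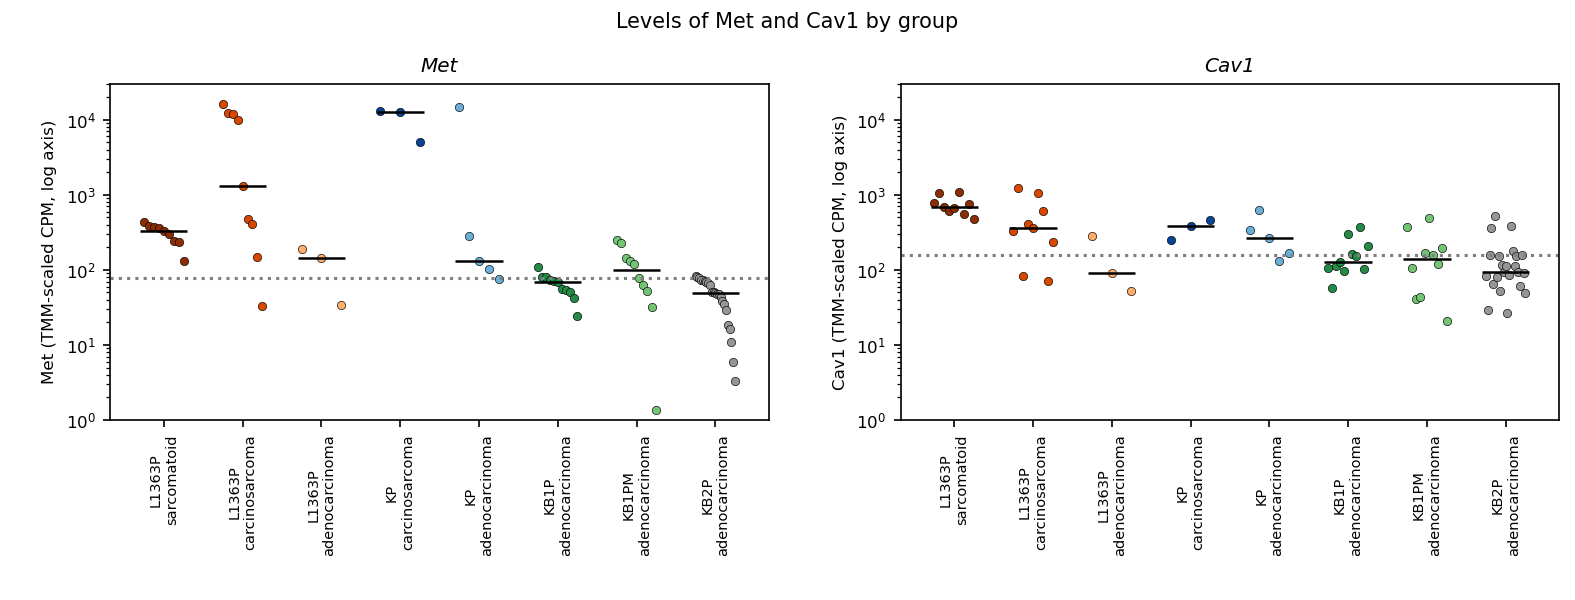
CPM (log axis) of Met and of Cav1 in every tumour by group, with the group median as a solid line and the median of all 73 tumours dotted. Met separates 9 tumours, at 1297 CPM or more, from the rest, and the group median of Cav1 is highest in the sarcomatoid tumours, at 692 CPM.

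In KB1P, KB1PM and KB2P tumours none of 44 reached 4 times the median of Met. Met ran from 24.3 to 111 CPM in KB1P (median 68.9), from 1.37 to 248 in KB1PM (median 99.2) and from 3.31 to 83.6 in KB2P (median 48.6). The low end was set by KB1PM tumour 8, with 27 counts of Met, 0.0175 times the median. Its epithelial markers summed to 159 CPM, against 1399 to 4541 CPM in the other 9 KB1PM tumours, and their part in its Met level was not tested. KB2P tumour 30, with 12.3 CPM of epithelial markers, had Met at 0.0761 times. KB2P tumour 3 had Met at 0.0423 times (63 counts) with 1076 CPM of these markers and KB2P tumour 31 at 0.141 times with 1175 CPM. Both sums lay below the KB2P median of 1850 CPM, and their part in these Met levels was not tested. KB1PM tumours 11 and 6, at 3.17 and 2.95 times, were the only ones of the 44 above 2. Of the 44, 38 had at most 1 elevated neighbour.

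KB1PM tumour 11 had the most of the 44, with 5 of 8 neighbours elevated. There Tes stood at 2.48, Cav2 at 2.20, Cav1 at 2.32, Cftr at 6.33 and Cttnbp2 at 2.31 times their medians, while Capza2, the gene next to Met, was at 1.35, St7 at 1.19 and Lsm8 at 1.22. The elevated genes here thus included Cav1 and not Capza2 or St7, which were elevated in all 9 tumours of the top band. The highest Cav1 of these models was 373 CPM in KB1P, 496 in KB1PM and 516 in KB2P, and the highest Capza2 of the 44 was 295 CPM, below every value of the 9 tumours.

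Across all 73 tumours the levels of Met went most with those of its direct neighbour Capza2 (Spearman rho 0.826), then Cav1 (0.533), Cav2 (0.518), Cftr (0.506), Tes (0.307) and St7 (0.299), with Lsm8 at 0.149 and Cttnbp2 at -0.201. Within the 44 KB1P, KB1PM and KB2P tumours the values were 0.461 for Capza2, 0.414 for Tes, 0.330 for Cftr and 0.311 for Cav2. Lower values were those of Lsm8 (0.150), St7 (0.0913), Cav1 (0.0362) and Cttnbp2 (-0.0283). The tumours share groups and runs, so these values describe the set of libraries and carry no p. Over all genes, leaving out symbols of the Gm and Rik forms here and for Cav1, Capza2 had the highest rho with Met. It was followed by Cald1, the actin-binding caldesmon gene (0.815), and Nav3 (0.808). Capza2 was chosen on its levels in these same tumours, so nothing is read from its rank. The 10 most like Cav1 were, in order, the transcription factor gene Ebf1 (0.811), Pcdh19 (0.779), Rab8b (0.777), Gask1b (0.764), Dcn, which encodes the matrix proteoglycan decorin (0.758), Prex2 (0.752), the basement membrane gene Nid1 (0.750), Klhl4 (0.741), Tent5a (0.740) and the collagenase gene Mmp2 (0.737).

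Sarcomatoid tumours (n = 9) were next compared with L1363P adenocarcinomas (n = 3), neither of which held a tumour with Met at 10 or more times its median. Of 16147 genes, 30.6% passed the edgeR quasi-likelihood test at a Benjamini-Hochberg adjusted p of 0.05, and 2 of the 9 genes did, a share below that background. Cav1 was higher, at 743 ± 212 CPM in sarcomatoid tumours and 142 ± 122 CPM in adenocarcinomas (mean ± SD; log2 fold change 2.40, SE 0.71, edgeR adjusted p = 0.0131), and all 9 sarcomatoid tumours lay above all 3 adenocarcinomas. Cttnbp2 was lower, at 2.02 ± 0.829 CPM in sarcomatoid tumours and 27.8 ± 35.0 CPM in adenocarcinomas (-3.77, SE 1.30, edgeR adjusted p = 0.0298), with all 9 below all 3. Both calls leaned on single adenocarcinomas: that of Cav1 was lost without adenocarcinoma 26.2 (edgeR adjusted p = 0.0887) or 52 (0.0593), and that of Cttnbp2 without adenocarcinoma 7.2 (0.360) and with limma on the deposited log2 values (0.178).

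The other 7 genes did not pass. Met averaged 310 ± 93.3 CPM in sarcomatoid tumours and 122 ± 80.3 CPM in adenocarcinomas (log2 fold change 1.35, SE 1.44, edgeR adjusted p = 0.494), with 8 of 9 sarcomatoid tumours above all adenocarcinomas. Capza2 averaged 453 ± 62.7 CPM in sarcomatoid tumours and 270 ± 25.7 CPM in adenocarcinomas (0.74, SE 1.10, edgeR adjusted p = 0.635), and Lsm8 46.6 ± 5.78 CPM in sarcomatoid tumours and 69.8 ± 6.56 CPM in adenocarcinomas (-0.58, SE 0.97, edgeR adjusted p = 0.673). For both genes the groups did not overlap. The spread of this fit was shared with the carcinosarcomas and KP tumours, where these genes vary most. Fitted on the 2 groups alone, Met (log2 fold change 1.31, edgeR adjusted p = 0.0399), Capza2 (0.71, 0.00313) and Lsm8 (-0.61, 0.00440) passed too.

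Comparisons that hold the 9 tumours repeat what chose the genes, so their counts are set down and nothing is read from them. In L1363P carcinosarcomas (n = 9) against L1363P adenocarcinomas (n = 3), 2.70% of genes passed the edgeR test and none of the 9 did, although log2 fold changes ran from 1.79 (Cav1) to 5.61 (Met) and all 9 had an unadjusted p under 0.05, as had 3291 of all 16147 genes. DESeq2 called all 9. Without the 4 libraries whose epithelial markers go against their label, a choice made after seeing the data, edgeR called 4: Met (log2 fold change 5.78, edgeR adjusted p = 0.0404), Capza2, St7 and Lsm8, with 1316 calls over all genes in place of 436. Carcinosarcoma 6 is the 1 of the 4 in these groups. With KP adenocarcinoma 90.01A and carcinosarcomas 4 and 17 of L1363P left out, edgeR called 2, St7 and Lsm8. In sarcomatoid tumours against L1363P carcinosarcomas 21.5% of genes passed, and 8 of the 9 genes were lower in sarcomatoid tumours, while Cav1 did not pass. In KP carcinosarcomas (n = 3) against KP adenocarcinomas (n = 5) 0% of genes passed, while 1926 of all genes and 6 of the 9 had an unadjusted p under 0.05, and DESeq2 called St7 and Cttnbp2. In L1363P against KP adenocarcinomas 0.211% of genes passed and none of the 9 did in edgeR, while DESeq2 called Met (log2 fold change -4.70). Without KP adenocarcinoma 39 the edgeR log2 fold change of Met was -0.28, against -4.69 with it.

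Against the other models, L1363P adenocarcinomas had no member past the test. Compared with KB1P tumours (KB1P and KB1PM titles averaged), 5.00% of genes passed, and Met averaged 122 ± 80.3 CPM in L1363P adenocarcinomas (n = 3) and 86.3 ± 61.7 CPM in KB1P and KB1PM tumours (n = 21; log2 fold change 0.53, SE 0.88, edgeR adjusted p = 0.818). Compared with KB2P tumours (n = 23), 9.10% passed, and Met averaged 48.1 ± 24.9 CPM there (1.34, SE 0.82, edgeR adjusted p = 0.308), with 2 of 3 L1363P adenocarcinomas above every KB2P tumour. Capza2 lay above every KB2P tumour in all 3, at 270 ± 25.7 CPM against 172 ± 39.4 CPM (0.65, edgeR adjusted p = 0.523). Run and genotype cannot be told apart in either comparison.

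KB1P tumours (n = 21) against KB2P tumours (n = 23) gave 13.2% of genes past the test and none of the 9. Met averaged 86.3 ± 61.7 CPM in KB1P and KB1PM tumours and 48.1 ± 24.9 CPM in KB2P tumours (log2 fold change 0.81, SE 0.45, edgeR adjusted p = 0.241). Cav2 averaged 112 ± 50.1 CPM in KB1P and KB1PM tumours and 74.4 ± 37.8 CPM in KB2P tumours (0.58, SE 0.32, edgeR adjusted p = 0.225). A p that misses the threshold does not show that the models are alike, and the runs differ here too.

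Hgf, the ligand gene, was at 1.16 to 6.21 times its median in the 9 tumours of the top band, at 4.54 to 30.9 times in the 7 of the middle band and at 0.0478 to 51.0 times in the other 57. The ranges overlapped between all bands. Phlda1, a gene induced by growth factor receptors, was at 1.24 to 4.35 times in the top band, 0.295 to 0.531 times in the middle band and 0.248 to 2.87 times in the other 57. Dusp6, a MAP kinase phosphatase and feedback gene of that cascade, was at 1.17 to 3.01 times in the top band, 0.664 to 0.776 times in the middle band and 0.388 to 2.42 times in the other 57. Of 2 transcription factor genes downstream of receptor kinases, Etv4 was at 0.624 to 1.21 times in the top band, 0.212 to 0.389 times in the middle band and 0.203 to 5.47 times in the other 57. Etv5 was at 0.638 to 1.85 times in the top band, 0.246 to 0.303 times in the middle band and 0.268 to 3.84 times in the other 57. For Phlda1, Dusp6 and Etv4 the range of the 57 tumours with low Met took in the whole middle band. For Etv5 the middle band began lower, at 0.246 against 0.268 times, and the ranges overlapped. For all 4 genes the range of the 57 overlapped the top band, and for Etv4 and Etv5 it reached higher than the top band. The bands were made from Met itself, so these values carry no test, and the low epithelial marker sums of the middle band stand beside them.

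Of 38 HGF and MET pathway genes tested besides Met, 8 were higher and 12 lower in sarcomatoid tumours than in L1363P adenocarcinomas (median log2 fold change 0.002, against -0.09 for all genes). Over all genes 30.6% passed, 1959 higher and 2986 lower. Hgf was higher, at 48.6 ± 29.1 CPM in sarcomatoid tumours and 2.93 ± 1.61 CPM in adenocarcinomas (4.05, SE 0.99, edgeR adjusted p = 0.00393), as were the plasminogen activator genes Plau (402 ± 169 CPM in sarcomatoid tumours and 93.8 ± 48.2 CPM in adenocarcinomas) and Plat (log2 fold change 1.82) and Cblb, a ubiquitin ligase gene (1.48). Among the 12 lower genes, St14, which encodes the protease matriptase, averaged 6.33 ± 5.81 CPM in sarcomatoid tumours and 339 ± 75.8 CPM in adenocarcinomas (-5.75, edgeR adjusted p = 0.00033). Its inhibitors Spint1 (-4.93) and Spint2 (-4.71) and the protease hepsin, Hpn (-3.62), were also lower. St14, Hpn and both inhibitors are epithelial genes, and 8 of 9 epithelial markers were lower in the same comparison, while 5 of 8 fibroblast, 7 of 8 endothelial and 5 of 5 macrophage markers were higher. Their part in the result was not tested.

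Of the remaining comparisons, only that of sarcomatoid tumours against L1363P carcinosarcomas gave nearly as many pathway calls. It gave 5 higher and 14 lower of 38, where 21.5% of all genes passed. In L1363P carcinosarcomas against adenocarcinomas 0 passed, against 2.70% of all genes, in KP carcinosarcomas against adenocarcinomas 0, as for every gene tested, in L1363P against KP adenocarcinomas 0, against 0.211%, and in L1363P against KB1P adenocarcinomas 0, against 5.00%. Of 39 genes tested against KB2P tumours, where 9.10% of all genes passed, 3 were higher in L1363P adenocarcinomas: Cd44, a hyaluronan receptor that can act as a MET co-receptor (671 ± 93.2 against 276 ± 149 CPM, log2 fold change 1.28), Cbl, the ubiquitin ligase that binds activated MET (1.38), and the adaptor gene Crk (0.50). In KB1P against KB2P tumours 3 of 39 were higher, where 13.2% of all genes passed in either direction. Hgf averaged 2.90 ± 3.04 CPM in KB1P and KB1PM tumours and 1.02 ± 1.17 CPM in KB2P tumours (1.48, edgeR adjusted p = 0.00436), Cbl had a log2 fold change of 1.23 (edgeR adjusted p = 1.12e-06) and Ptprj, a receptor phosphatase gene, one of 0.60.

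Of 7 caveola genes other than the 2 members (Cav3, Cavin1 to Cavin3, Ehd2, Pacsin2 and Pacsin3), 4 were higher in sarcomatoid tumours than in L1363P adenocarcinomas, 1, Pacsin3, was lower (-1.42), and Cav3 and Pacsin2 did not pass. Their median log2 fold change was 1.73, against -0.09 for all genes, of which 30.6% passed. Cavin1, the coat protein needed to form caveolae, averaged 487 ± 85.5 CPM in sarcomatoid tumours and 78.4 ± 6.93 CPM in adenocarcinomas (2.64, edgeR adjusted p = 0.00372). Ehd2, an ATPase of the caveolar neck, averaged 296 ± 46.3 CPM in sarcomatoid tumours and 89.2 ± 1.77 CPM in adenocarcinomas (1.73, edgeR adjusted p = 0.000191), and Cavin2 (2.82) and Cavin3 (1.59) were higher as well. In the 9 tumours of the top band Cavin1 stood at 0.593 to 1.99 and Ehd2 at 0.827 to 1.78 times the median, against 3.64 to 6.58 times for Cavin1 and 1.70 to 2.99 times for Ehd2 in the middle band. Fibroblast markers summed to 12573 to 31682 CPM in sarcomatoid tumours and 2435 to 4372 CPM in L1363P adenocarcinomas, and endothelial markers to 341 to 949 CPM in sarcomatoid tumours and 130 to 260 CPM in adenocarcinomas. Their part in the caveola genes was not tested.

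**Figure D5:**
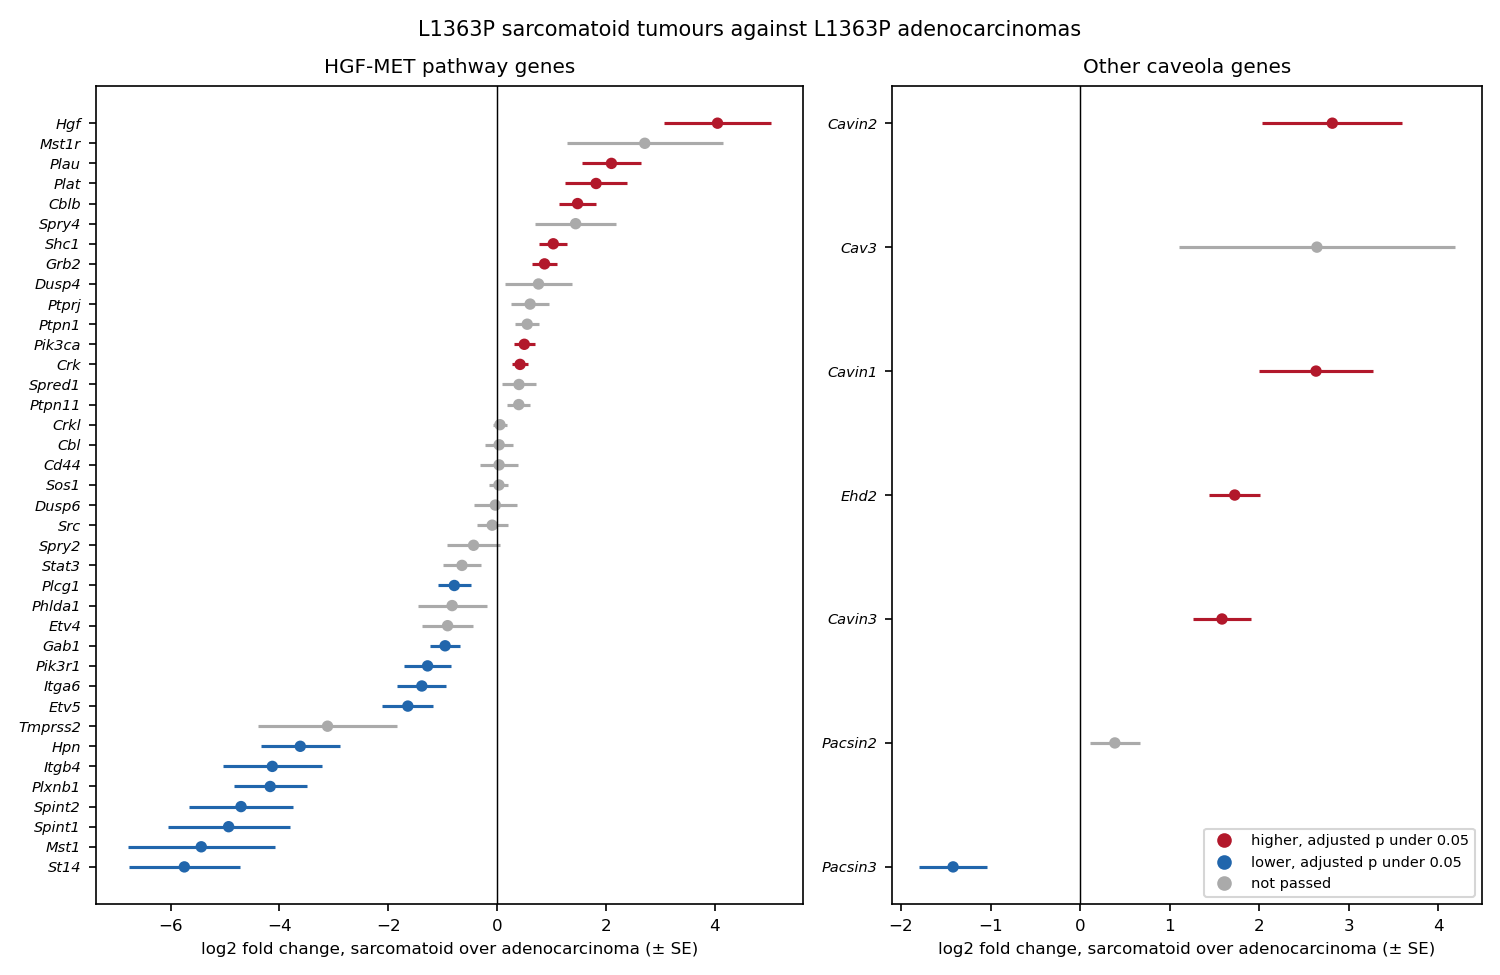
Log2 fold changes of sarcomatoid tumours over L1363P adenocarcinomas with standard errors (bars) for 38 HGF and MET pathway genes and 7 other caveola genes, coloured where the edgeR adjusted p is under 0.05. Hgf is at the top of the pathway genes (4.05) and St14 at the bottom (-5.75), and Cavin1 (2.64) and Cavin2 (2.82) are among the higher caveola genes.

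Partners of the neighbours elsewhere in the genome were also read. Of 10 measured genes (Capza1, Capzb and relatives of St7, Cttnbp2 and Lsm8), 2 were higher in sarcomatoid tumours than in L1363P adenocarcinomas, the capping protein subunits Capza1 (0.64) and Capzb (1.24), and 1, Lsm3 (-0.98), was lower. This share, 3 of 10, is near the background of 30.6% for that comparison, and nothing is read from it. Capza1, which encodes the other α subunit, was at 2.69 to 4.67 times its median in the top band and 4.66 to 5.91 times in the middle band. Its median of 8.01 CPM is set by the KB1P, KB1PM and KB2P libraries, whose group medians were 5.43 to 6.51 CPM, whereas every L1363P and KP tumour had 17.9 to 47.6 CPM, so these folds carry the difference between the 2 sets of libraries. It averaged 27.5 ± 6.20 CPM in L1363P adenocarcinomas and 6.75 ± 3.76 CPM in KB1P and KB1PM tumours (2.07, edgeR adjusted p = 7.16e-10), a comparison in which run and genotype cannot be told apart. Lsm3, Lsm5 and Lsm7 were higher there too, 4 genes of the 10 in all, where 5.00% of all genes passed.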

How the data were processed

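Each of 73 mouse mammary tumours gave 1 stranded TruSeq library of polyadenylated RNA, per the labels' protocols. Per the file headers, the authors deposited read counts under 39438 gene symbols and log2 normalized counts under 37148. The tools named by the submitters' processing notes are featureCounts 2.0.0, STAR 2.7.3a, cutadapt 2.10 and DESeq, with the build mm10. Their settings, strand included, are not given in the sources used. Dates had replaced 24 symbols of the deposited counts (0.169% of counts).

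Counts were tested with edgeR 4.0.16 in R 4.3.3: filterByExpr (minimum count 10), TMM scaling and quasi-likelihood F tests, adjusted after Benjamini and Hochberg over all genes. Comparisons among L1363P and KP groups used 1 fit of the 29 libraries of run 5625 (16147 genes, 5 groups), those with KB1P or KB2P 1 fit of all 73 (18492 genes, 8 groups). KB1P and KB1PM titles were fitted apart and averaged. Alternatives used DESeq2 1.42.0 and limma 3.58.1, limma on the deposited log2 values. The scripts were tested on simulated counts. Spearman correlations are over log2 CPM (prior count 2). Folds of single tumours are over the median of the 73, with elevation of Met read at 2, 4 and 10 times and of a neighbour at 2 times. Positions are from GENCODE for GRCm38, promoters from RefSeq GRCm38.p6.

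The members and lists were chosen with earlier results of these data known. Named genes are the 9 members, expressed genes within 5 Mb of Met, the genes most correlated with Met and Cav1, and up to 4 called genes per list and comparison. Genes named by band, and Yap1, were chosen after their values were seen. Copy-number sequencing was not analysed here.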

Additional observations from a re-analysis of the deposited data

Results flagged for a closer look

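Of 36 combinations of a member and a group of 4 to 10 tumours, 5 held a tumour far from the rest of its group by Dixon's rule at 95%. Chance alone flags about 1 in 20 groups, but the values of Met, Tes, Capza2 and Cttnbp2 given here are among those the genes were chosen on, and nothing is read from their number. In the 5 KP adenocarcinomas, tumour 39 stood apart with 1571.29 CPM of Tes (next highest 142), 14956.4 CPM of Met (next highest 284) and 7029.23 CPM of Capza2 (next highest 464). Tumour 131.03A of the same group had 43.5473 CPM of Cftr, and the next highest tumour 8.43. In the 9 L1363P carcinosarcomas, tumour 54.1 had 1971.96 CPM of Cttnbp2, and the next highest, 54.2, had 931. KP adenocarcinoma 131.03A had 102 CPM of Met, so its Cftr stood high without Met.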

How the results depend on the processing

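Genes of the 9 that passed numbered 2 in sarcomatoid tumours against L1363P adenocarcinomas, but 1 with limma, 5 on the compared groups alone and 1 without any one adenocarcinoma. In L1363P carcinosarcomas against adenocarcinomas 0 passed, but 9 with DESeq2 2 without KP adenocarcinoma 90.01A and L1363P carcinosarcomas 4 and 17, and 4 (Met, Capza2, St7, Lsm8) without the 4 libraries whose epithelial markers go against their label (L1363P carcinosarcoma 6, KP adenocarcinoma 90.01A, KB1PM 8, KB2P 30), left out after seeing the data. Leaving out carcinosarcoma 54.1 or 54.2, chosen after seeing the data, changed no count of members. In sarcomatoid tumours against carcinosarcomas 8 passed, but 5 with limma. In KP carcinosarcomas against adenocarcinomas 0 passed, but 2 with DESeq2 and 1 on the compared groups alone, and in L1363P against KP adenocarcinomas 0, but 1 with DESeq2. Tumours with Met at 4 or more times its median numbered 16, but 9 over the median of their own set, 5 over that of their own group and 9 at 10 or more times.

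Over all genes, calls in L1363P carcinosarcomas against adenocarcinomas numbered 436, but 1119 with DESeq2, 175 with limma, 6 on the compared groups alone and 1316 without the 4 libraries. In KP carcinosarcomas against adenocarcinomas they numbered 0, but 184 with DESeq2, 1 with limma and 2 on the compared groups. In L1363P against KP adenocarcinomas they numbered 34, but 8 with no filter, 468 with DESeq2, 17 with limma, 0 on the compared groups and 2 without 90.01A, 4 and 17. Those 3 left out, sarcomatoid tumours against carcinosarcomas gave 5994, not 3468. On the compared groups, L1363P against KB2P gave 924, not 1683, and KB1P against KB2P 1521, not 2439. Replicate numbers shared between any 2 of the KB1P, KB1PM and KB2P groups did not pair the tumours. Of 17 such same-numbered pairs, 5 correlated above 0.1 (-0.16 to 0.419), and 3 of 28 samples correlated best with their own number. With a replicate block, 265 genes passed in KB1P against KB2P, Cttnbp2 had a log2 fold change of -0.3417 and Lsm8 one of 0.06411.

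Some log2 fold changes near 0 changed sign. In L1363P against KB2P adenocarcinomas Tes went to -0.00392 with RLE factors and -0.003794 with DESeq2, and Cav1 to -0.01014 and -0.01028. With limma Cftr was 0.09165 against KP, 0.545 against KB1P and 1.599 against KB2P, and Cttnbp2 in KB1P against KB2P -0.07514. Cttnbp2 in L1363P against KP adenocarcinomas was -0.03397 without 90.01A, 4 and 17 and -0.06377 without the 4 libraries. Without 1 tumour at a time, in L1363P against KP adenocarcinomas Cttnbp2 ran from -1.591 to 0.7664, Cftr from -1.406 to 0.7559, Tes from -2.316 to 0.4417 and St7 from -0.3238 to 0.04482. Against KB1P, Cav1 ran from -1.211 to 0.1543 and Tes from -0.9536 to 0.1065, and against KB2P, Cav1 from -0.9429 to 0.4222 and Tes from -0.709 to 0.3513. In sarcomatoid tumours against L1363P adenocarcinomas Tes ran from -0.8479 to 0.2344. Genes called without 1 tumour ran from 2490 to 4260 in that comparison, 91 to 742 in L1363P carcinosarcomas against adenocarcinomas, 2697 to 2876 in sarcomatoid tumours against carcinosarcomas, 0 to 2 in the KP comparison, and 7 to 283, 505 to 567 and 863 to 963 in L1363P adenocarcinomas against KP, KB1P and KB2P. The causes were not tested. Cftr, with a median of 42 counts, is limited by depth.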
